A study of Mus musculus with 4 samples.

Results

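Leukocyte adhesion and homing genes encode the molecules with which white blood cells slow down on a vessel wall, hold on to it and pass into the tissue. The 9 genes described here are the integrin alpha subunit genes Itgal, Itgam and Itga4, the integrin beta subunit genes Itgb2 and Itgb7, the selectin gene Selp, the selectin ligand gene Selplg, and the immunoglobulin family ligand genes Icam1 and Vcam1. They were chosen by name, as rows of the deposited expression table with these symbols, and all 9 of them were found among its 17335 genes. In gonadal white adipose tissue (gWAT) 8 of the 9 were lower in mice lacking Dnmt1 in adipocytes than in their controls, at 28.9% to 59.7% of the control level. Selp alone lay on the other side, at 127% of the control level.

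Leukocyte recruitment runs in steps. Selectins on the endothelium and platelets bind sugar-bearing ligands on passing leukocytes, which then roll, and chemokines switch the integrins of rolling cells to a state of high affinity. Activated integrins, each a pair of one alpha and one beta subunit, bind immunoglobulin family ligands on the endothelium and arrest the cell. In obese fat, macrophages, lymphocytes and other leukocytes gather around large adipocytes.

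The study asked whether DNA methylation in adipocytes bears on inflammation of fat. Female Dnmt1 fl/fl mice with intact Dnmt1, called fl/fl, and female littermates with the floxed gene deleted by adiponectin-Cre, called AD1KO, were both fed a high-fat diet (HFD) with 60% of calories from fat. The series text gives 18 weeks on the diet, and the labels give no age. Adiponectin-Cre acts in adipocytes, so that leukocytes, endothelium and other cells of the AD1KO tissue keep Dnmt1, and both groups carry the floxed allele. Equal amounts of RNA from 4 animals per group were pooled and sequenced as 1 library, so no spread between animals can be given and no test between the genotypes is possible. The bisulfite sequencing samples of the series, which compare diets in other mice, were not analysed here.

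The deposited values are FPKM, fragments scaled to transcript length and to the size of the library. The low values step in whole reads, which put the depth of the fl/fl library near 17480000 reads and that of the AD1KO library near 17280000. A difference is given as a log2 ratio, the AD1KO level over that of fl/fl, and a gene is called lower or higher where this ratio passed 0.5 in size, the threshold of the study. The 95% intervals are counting intervals from the recovered reads and hold no variation between animals. Dnmt1 itself stood at 6.99 FPKM in fl/fl and 3.33 FPKM in AD1KO, a log2 ratio of -1.07 (95% counting interval -1.28 to -0.87), the direction the labels call for. In whole tissue this value does not by itself show the deletion in adipocytes. Leukocytes keep Dnmt1, and the leukocyte gene Ptprc was also lower, at -1.27. The part of leukocytes in the Dnmt1 value was not tested. Adipocyte markers were abundant in both libraries: Fabp4, a fatty acid carrier of adipocytes, was at 11151 FPKM in fl/fl and 15920 FPKM in AD1KO, and 8 of 10 adipocyte markers were higher in AD1KO and 0 lower. Genes below 0.1 FPKM in both libraries were left out, and the 15839 others were tested, that is, set against the threshold. Their median log2 ratio was -0.04.

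All 9 genes passed that filter, with 336 to 8311 reads over both libraries, against a median of 567 reads for all tested genes. Of the 9, 8 were lower in AD1KO, where 19.1% of all tested genes were lower, and 0 of 9 were higher, where 14.3% of all tested genes were higher. At the stricter log2 ratio of -1, 7 of 9 were lower, against 8.95% of all tested genes. The exceptions at that size were Itgam and Selp. All 8 lower genes had their whole counting interval below -0.5, a criterion met by 8.24% of all tested genes. The median log2 ratio of the 9 genes was -1.11. The genes were chosen with earlier results of these data known, so these counts describe them and are no test.

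**Figure D1:**
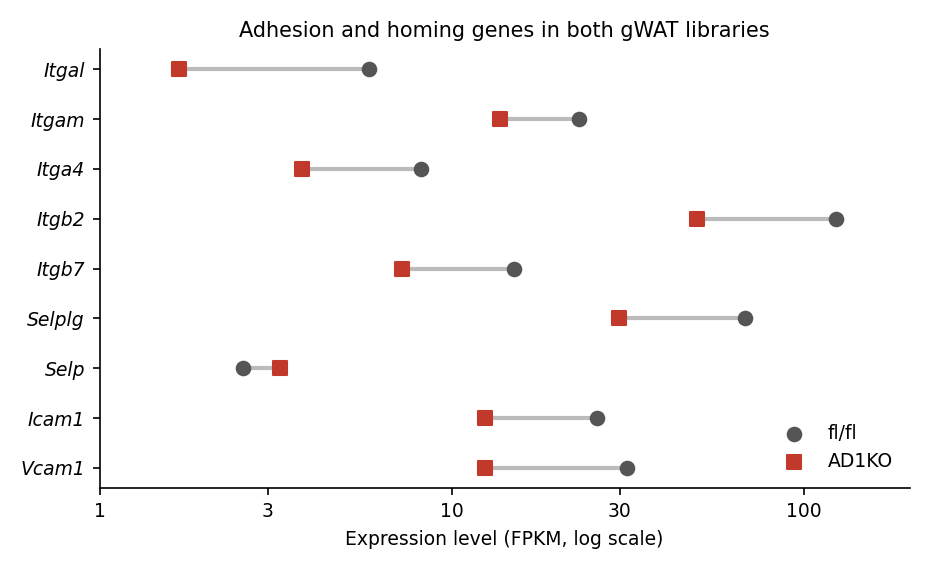
Expression level in FPKM (log axis) of each of the 9 genes in the fl/fl library (grey circles) and the AD1KO library (red squares), 1 pooled library per genotype. Of the 9 genes, 8 shift to the left in AD1KO, and Selp moves slightly to the right, from 2.56 to 3.26 FPKM.

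Reference promoter sequence was at hand for 5 of the 9 genes, Itgam, Itga4, Itgb7, Selp and Icam1. The sequences are those of RefSeq on GRCm38.p6, a newer build than the mm9 used for the expression table, and cover the 250 bases before the annotated start. Those of Itgam, Icam1 and Selp are shown. They stand for a leukocyte integrin with a smaller difference, an immunoglobulin family ligand with a larger one, and the gene that did not follow the others. The 3 sequences and the motifs were picked after the sequences and values had been seen. Capitals mark matches to GAGGAA, a core bound by ets factors such as PU.1, to GGAAATTCC, a form of the kappa B element, and to TTCNNNGAA, the spaced STAT element, each searched on both strands.
Itgam, chr7:128062390-128062639, plus strand: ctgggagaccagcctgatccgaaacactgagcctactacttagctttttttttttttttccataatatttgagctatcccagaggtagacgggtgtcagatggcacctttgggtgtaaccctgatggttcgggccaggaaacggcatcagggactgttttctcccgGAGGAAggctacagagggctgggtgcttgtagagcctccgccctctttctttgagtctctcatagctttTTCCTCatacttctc
Icam1, chr9:21015690-21015939, plus strand: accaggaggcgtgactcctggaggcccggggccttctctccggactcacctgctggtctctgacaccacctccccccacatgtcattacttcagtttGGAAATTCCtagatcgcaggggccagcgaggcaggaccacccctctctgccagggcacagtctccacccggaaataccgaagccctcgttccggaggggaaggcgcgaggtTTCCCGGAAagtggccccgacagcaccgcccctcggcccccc
Selp, chr1:164115014-164115263, plus strand: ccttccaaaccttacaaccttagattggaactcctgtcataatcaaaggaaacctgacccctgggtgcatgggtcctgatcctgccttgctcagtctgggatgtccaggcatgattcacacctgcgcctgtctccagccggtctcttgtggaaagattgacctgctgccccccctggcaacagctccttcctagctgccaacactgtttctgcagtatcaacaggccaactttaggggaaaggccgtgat
The Itgam promoter holds GAGGAA at -84 to -79 and, on the minus strand, at -15 to -10, counted from the base before the start as -1. That core is common, with a match in 23.4% of 32536 promoters of this length. The Icam1 promoter holds GGAAATTCC at -153 to -145, which 0.289% of promoters share, and TTCNNNGAA at -42 to -34, which 7.04% share. The searched letters of one motif do not overlap those of another in these sequences, and none of the 3 motifs has a match in the Selp, Itga4 or Itgb7 window. DNMT1 maintains methylation at CpG dinucleotides, and the windows differ in how many they hold. Icam1 has 15 CpG, more than 72.5% of promoters, while Selp has 3, Itgb7 has 5, and Itgam and Itga4 have 6 each, where the median promoter has 6. Methylation of these windows was not analysed here.

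Itgal encodes integrin alpha L (CD11a), which pairs with the β2 subunit to form LFA-1, the integrin of lymphocyte and other leukocyte arrest on ICAM-1. It lies on chromosome 7 of mm9 at 134439774 to 134478651, plus strand. Its level was 5.81 FPKM in fl/fl and 1.68 FPKM in AD1KO, from 519 and 148 reads. The log2 ratio of -1.78 (95% counting interval -2.07 to -1.53) was the lowest of the 9, and its interval did not reach that of any other member.

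Itgam encodes integrin alpha M (CD11b), which pairs with β2 to form Mac-1, the complement receptor of macrophages, monocytes and neutrophils. It lies further along the same chromosome, at 135206154 to 135271674 on the plus strand. Its level was 23.05 FPKM in fl/fl and 13.75 FPKM in AD1KO. This was the smallest difference among the 8 lower genes, a log2 ratio of -0.74 (-0.85 to -0.64), and the interval lay above those of the other 7. The difference between the log2 ratios of Itgal and Itgam was -1.04, so that these partners of β2 stood far apart within the same pair of libraries.

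Itga4 encodes integrin alpha 4 (CD49d), which pairs with β1 as VLA-4, a receptor for VCAM-1, or with β7 as a gut-homing receptor for MAdCAM-1. It lies on chromosome 2 at 79095583 to 79173280, plus strand. Its level was 8.17 FPKM in fl/fl and 3.77 FPKM in AD1KO, a log2 ratio of -1.11 (-1.27 to -0.97) that sits at the median of the 9. Of its 50-base stretches, 2.69% are also found in a neighbouring gene, Cerkl, and reads from these cannot be assigned to one gene.

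Itgb2 encodes the β2 subunit (CD18), shared by all leukocyte-restricted β2 integrins, and lies on chromosome 10 at 76992997 to 77028453, plus strand. It had the highest level of the 9 genes in both libraries, 123.68 FPKM in fl/fl and 49.84 FPKM in AD1KO. With 5943 and 2368 reads it also had the narrowest interval, a log2 ratio of -1.31 (-1.38 to -1.24).

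Itgb7 encodes the β7 subunit of lymphocytes and some myeloid cells, on chromosome 15 at 102046426 to 102062366, minus strand. Its level was 15.05 FPKM in fl/fl and 7.23 FPKM in AD1KO, a log2 ratio of -1.06 (-1.25 to -0.86). The ratios of Itga4 and Itgb7, which form one receptor together, differed by -0.06 (-0.30 to 0.18), an interval that holds 0.

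Selplg encodes PSGL-1, the mucin on leukocytes that P-selectin binds, and lies on chromosome 5 at 114267807 to 114280510, minus strand. It was the second most abundant member, at 68.14 FPKM in fl/fl and 29.84 FPKM in AD1KO. Its log2 ratio was -1.19 (-1.29 to -1.10).

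Selp encodes P-selectin, stored in platelet granules and endothelial cells and brought to the surface on activation, and lies on chromosome 1 at 166045395 to 166080157, plus strand. Its level was 2.56 FPKM in fl/fl and 3.26 FPKM in AD1KO, from 149 and 187 reads, the fewest of the 9 over both libraries together. The log2 ratio of 0.35 (0.03 to 0.66) did not pass 0.5, and 79.4% of all tested genes had a lower ratio. The ratio of Selp exceeded that of its ligand gene Selplg by 1.54 (1.21 to 1.86), so that the receptor and ligand mRNAs of the rolling step stood on opposite sides of 0.

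Icam1 encodes ICAM-1, the ligand of LFA-1 and Mac-1 on activated endothelium, leukocytes and stromal cells, on chromosome 9 at 20820404 to 20833241, plus strand. Its level was 25.84 FPKM in fl/fl and 12.46 FPKM in AD1KO, a log2 ratio of -1.05 (-1.20 to -0.90). Vcam1 encodes VCAM-1, the ligand of α4 integrins on activated endothelium, some macrophages and stromal and mesothelial cells, on chromosome 3 at 115812938 to 115832606, minus strand. Its level was 31.41 FPKM in fl/fl and 12.44 FPKM in AD1KO, a log2 ratio of -1.34 (-1.47 to -1.21). The ratio of Icam1 exceeded that of Vcam1 by 0.28 (0.09 to 0.48). Vcam1 was the more abundant per length in fl/fl, and the levels were nearly equal in AD1KO, with Icam1 over Vcam1 at 0.823 and 1.00.

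**Figure D2:**
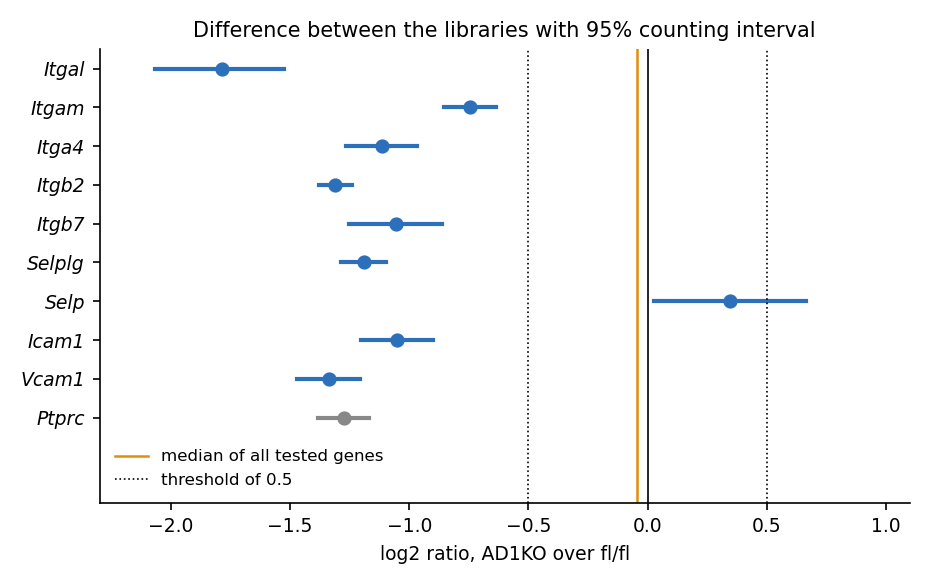
Log2 ratio (AD1KO over fl/fl) for the 9 genes (blue) and for Ptprc, the CD45 gene of all leukocytes (grey), with 95% counting intervals as horizontal bars, the threshold of 0.5 as dotted lines and the median of all tested genes in orange. Itgal lies furthest left at -1.78, Itgam at -0.74 is the nearest to 0 of the lower genes, and Selp lies at 0.35.

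In whole tissue, fewer cells of a type and less RNA per cell cannot be told apart. Ptprc, the gene of the CD45 phosphatase that all leukocytes carry, was at 27.31 FPKM in fl/fl and 11.29 FPKM in AD1KO, a log2 ratio of -1.27 (-1.38 to -1.17). Set against it, the members differed to varying degrees. Pan-leukocyte markers themselves ran from -1.59 for Cd52 to -0.95 for Arhgdib. An interval without 0 against Ptprc therefore does not by itself set a member apart from leukocyte genes. The log2 ratios of Itgb2, Selplg, Vcam1 and Itga4 differed from that of Ptprc by -0.04 (-0.16 to 0.09), 0.08 (-0.06 to 0.22), -0.06 (-0.23 to 0.11) and 0.16 (-0.02 to 0.34), intervals that all hold 0. Itgb7 was at the edge, with a difference of 0.22 (-0.00 to 0.44). Itgal lay below Ptprc, by -0.51 (-0.79 to -0.23), and Itgam lay above it, by 0.53 (0.38 to 0.68). Icam1 lay above by 0.22 (0.04 to 0.40), and Selp by 1.62 (1.29 to 1.95). The place of Icam1 depends on the reference, since against the median of the pan-leukocyte markers it lay above by 0.13, while Itgb2 lay at -0.13. The gap of Itgal depends on the pseudocount. With 1 FPKM added the log2 ratio of Itgal came to -1.35 and the pan-leukocyte median to -1.17. These intervals are approximate and cover counting error only, and the pairs compared here number 13 beside the 9 comparisons with Ptprc.

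Marker genes of the cells that carry these molecules differed as well. The counts of all marker lists stand beside 19.1% lower and 14.3% higher over all tested genes. Of 10 pan-leukocyte genes 10 were lower in AD1KO, with a median log2 ratio of -1.18 and a summed level of 1757 FPKM in fl/fl and 701 FPKM in AD1KO, and the least lowered of them was Arhgdib at -0.95. Macrophage markers, led in abundance by the lysozyme gene Lyz2, were lower in 10 of 11 with a median of -1.11, from -2.03 for the Fc receptor gene Fcgr1 to -0.48 for the efferocytosis receptor gene Mertk, and their summed level was 7139 FPKM in fl/fl and 3106 FPKM in AD1KO. T cell markers were lower in 10 of 10 with a median of -1.61, from -2.22 for Cd5 to -0.90 for Cd6, and summed to 91.6 FPKM in fl/fl and 29.0 FPKM in AD1KO. NK cell markers were lower in 7 of 7 with a median of -1.88, from -2.91 for Ncr1, with 39 and 5 reads, to -1.57 for Eomes, and summed to 25.3 and 6.62 FPKM. NK and dendritic cell markers are scarce, and with 1 FPKM added their medians came to -0.98 and -0.55, that of the T cell list to -1.26 and that of the macrophage list to -1.10. The T cell median was thus lower than the macrophage median in both settings. The NK cell median was lower with 0.01 FPKM added and with 0.1 FPKM added (-1.74 against -1.11), but not with 1 FPKM added. Dendritic cell markers had a median of -1.12, with 5 of 7 lower and 1 higher, from Clec9a at -2.17 to Cd209a at 0.68. B cell markers had a median of -0.69, with 6 of 8 lower, from Cd22 at -0.95 to Ms4a1 at -0.03, and summed to 102 and 65.8 FPKM. Neutrophil markers, which belong to cells rich in Itgam, were lower in 3 and higher in 3 of 7 tested, from Csf3r at -1.09 to Ngp, which had 1 read in fl/fl and 5 in AD1KO. They summed to 44.5 FPKM in fl/fl and 64.7 FPKM in AD1KO, and the higher sum rests on S100a8, an alarmin subunit that myeloid cells carry, at 32.72 and 57.28 FPKM. Without S100a8 the sums were 11.8 and 7.38 FPKM. The part of these cell types in the members' ratios was not tested.

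Selp, Icam1 and Vcam1 belong partly to vessels or platelets, whose marker lists had medians on different sides of 0. Of 11 blood endothelial markers, 0 were lower and 1 was higher, with a median log2 ratio of 0.29, from 0.10 for Pecam1 to 0.50 for Tie1, and a summed level of 169 FPKM in fl/fl and 205 FPKM in AD1KO. The endothelial median lay near Selp at 0.35, and all genes of that list lay above Icam1 and Vcam1. Platelet and megakaryocyte markers were lower in 5 and higher in 0 of 8, with a median of -0.73, from Gp9, with 3 and 1 reads, to Gp5, with 4 and 5. They summed to 197 FPKM in fl/fl and 123 FPKM in AD1KO. Nearly all of this was the platelet factor gene Pf4, at 192.98 and 119.94 FPKM, and no other marker of the list passed 1.57 FPKM. With 1 FPKM added, the platelet median came to -0.24. The platelet median lay on the other side of 0 from Selp, but apart from Pf4 its genes are scarce, so the list does not fix a direction for platelets. Mesothelial markers, of the lining of the fat pad that also carries Icam1 and Vcam1, were higher in 7 and lower in 0 of 8, with a median of 0.79. Stromal progenitor markers had a median of 0.16, with 2 of 9 lower and 1 higher, from Ly6a at -1.31 to Dpp4 at 0.50. Markers of high endothelial venules and lymph node stroma were lower in 3 and higher in 2 of 8, with a median of -0.27. Of 6 tested lymphatic endothelial markers 3 were higher and 0 lower, with a median of 0.63 that came to 0.14 with 1 FPKM added. Both lists hold Ccl21a, a chemokine gene of lymphatic vessels and lymph node stroma with near-identical copies that make its value uncertain, at 0.13 FPKM in fl/fl and 37.74 FPKM in AD1KO from 2 and 492 reads. With it the summed level of the first list was 47.3 FPKM in fl/fl and 70.8 FPKM in AD1KO, the reverse of its median. The part of these cells in the ratios of Selp, Icam1 and Vcam1 was not tested.

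**Figure D3:**
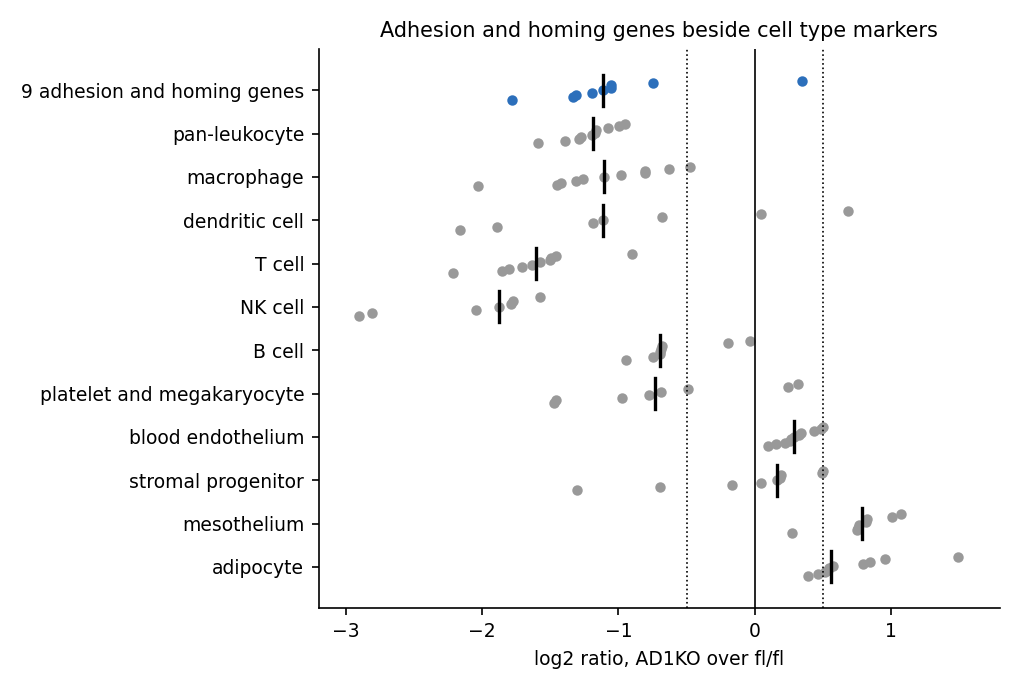
Log2 ratios (AD1KO over fl/fl) of the 9 adhesion and homing genes (blue points) and of marker genes of cell types (grey points), 1 point per tested gene, with the list median as a black bar and 0.5 in either direction as dotted lines. The 9 genes have a median of -1.11, pan-leukocyte markers -1.18, T cell markers -1.61, blood endothelial markers 0.29 and adipocyte markers 0.56.

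The β2 subunit reaches the cell surface only when joined to an alpha subunit, and 4 alpha genes share it: Itgal, Itgam, Itgax (CD11c, of dendritic cells and of macrophages in obese fat) and Itgad (CD11d, of some tissue macrophages). FPKM is per length, so levels of these genes can be set side by side. Itgax was at 51.43 FPKM in fl/fl and 20.53 FPKM in AD1KO, a log2 ratio of -1.32 (-1.42 to -1.23) that lies close to that of Itgb2. Itgad was at 15.14 FPKM in fl/fl and 19.78 FPKM in AD1KO, a log2 ratio of 0.39 (0.27 to 0.51), the one β2 partner that was not lower. Itgam, Itgax and Itgad lie next to each other on the plus strand of chromosome 7, with Itgax at 135273061 to 135294171 and Itgad at 135297890 to 135349015. The ratio of Itgad exceeded that of Itgax by 1.71 (1.56 to 1.86) and that of Itgam by 1.13 (0.97 to 1.29). Itgax and Itgad are near copies in places, with 9.63% of the 50-base stretches of Itgax found in Itgad and 9.08% of those of Itgad found in Itgax, and how reads from them were assigned is not given in the sources used here.

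The makeup of the alpha pool differed between the libraries. The 4 alpha genes summed to 95.43 FPKM in fl/fl and 55.74 FPKM in AD1KO, and Itgb2 over this sum was 1.30 in fl/fl and 0.894 in AD1KO. The crossing of 1 rests on Itgad, and without it Itgb2 over the sum of the other 3 was 1.54 in fl/fl and 1.39 in AD1KO. Itgax made up 53.9% of the alpha sum in fl/fl and 36.8% in AD1KO. Itgad made up 15.9% and 35.5%, which put it level with Itgax in AD1KO. The share of Itgam was close in both, at 24.2% and 24.7%, although its level was lower, and that of Itgal was 6.09% and 3.01%. For β7, the partners Itga4 and Itgae (CD103, of resident lymphocytes and dendritic cells) summed to 8.46 FPKM in fl/fl and 4.26 FPKM in AD1KO. Itgb7 over this sum was 1.78 and 1.70, a smaller difference than for β2. Itgae was at 0.29 FPKM and 0.49 FPKM from 19 and 31 reads, and its log2 ratio of 0.74 passed the threshold although the interval, -0.15 to 1.63, holds 0. Itgb1, the other partner of alpha 4 and a subunit of most cell types, was at 103.2 FPKM in fl/fl and 91.25 FPKM in AD1KO, a log2 ratio of -0.18.

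**Figure D4:**
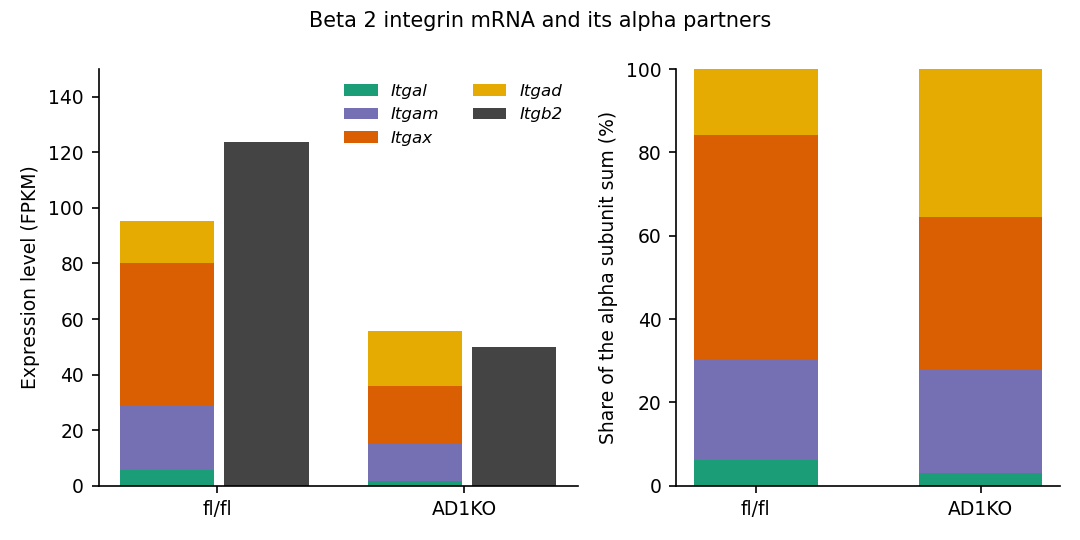
Left, expression level in FPKM of the 4 alpha subunit genes that pair with β2, stacked, beside that of Itgb2 in each library. Right, each alpha gene as a percent of the alpha sum. Itgb2 stands above the stack in fl/fl (123.68 against 95.43 FPKM) and below it in AD1KO (49.84 against 55.74 FPKM), and Itgad takes 15.9% of the sum in fl/fl and 35.5% in AD1KO.

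Receptors and ligands of the arrest step were compared by their log2 ratios. Itgal lay below its ligand gene Icam1 by -0.73 (-1.03 to -0.43), and below its partner gene Itgb2 by -0.47 (-0.75 to -0.20). The low level of Itgal makes these gaps depend on the pseudocount, and with 1 FPKM added the log2 ratios of Itgal, Itgb2 and Icam1 were -1.35, -1.29 and -0.996. Itgam lay above Icam1 by 0.31 (0.12 to 0.49) and above Itgb2 by 0.57 (0.44 to 0.69). Itga4 lay above its ligand gene Vcam1 by 0.22 (0.03 to 0.42). Neither ligand gene followed Selp, whose ratio exceeded that of Vcam1 by 1.68 (1.35 to 2.02) and that of Icam1 by 1.40 (1.05 to 1.74). The intervals given exclude 0 within counting error, and how far pooled animals would move them cannot be told from 1 library per genotype.

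The other genes of the pathway were taken from lists, whose counts stand beside 19.1% lower and 14.3% higher over all tested genes. Of 9 leukocyte integrin subunit genes, the 5 members included, 6 were lower and 1 was higher. The 4 that are not members, Itgax, Itgad, Itgae and Itgb1, hold 1 lower and 1 higher gene with a median log2 ratio of 0.10, so the count of the list comes mostly from the members. Of 17 other integrin subunit genes, most of them of mesenchymal, epithelial and endothelial cells, 14 were tested, 3 were lower and 5 higher, with a median of 0.24. That median came to 0.08 with 1 FPKM added. The genes ran from Itga9 at -0.73 to Itga8 at 0.86, the latter from 15 and 28 reads, and the most abundant was Itga7, a laminin receptor of muscle, at 57.88 FPKM in fl/fl and 88.06 FPKM in AD1KO.

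Integrin activation genes were lower in 9 and higher in 0 of 18, with a median of -0.49, against 19.1% and 14.3% of all tested genes. The lowest was Fermt3, which encodes kindlin-3, the kindlin of blood cells that binds the beta subunit tail, at 44.1 FPKM in fl/fl and 17.39 FPKM in AD1KO. Its log2 ratio of -1.34 (-1.47 to -1.22) overlapped that of Itgb2. The highest was Tln2, a talin of muscle and other tissues, at 0.48, and the most abundant was Gnai2, an inhibitory G protein subunit downstream of chemokine receptors, at 349 FPKM in fl/fl and 264 FPKM in AD1KO and a log2 ratio of -0.41.

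The rolling step was mixed. Of 8 tested genes of the list of selectins and selectin ligand proteins, 2 were lower and 0 higher, with a median of 0.18 that came to 0.04 without the filter on low values. The lower ones were Selplg and the hyaluronan receptor gene Cd44, the lowest, at -1.30. The highest was the sialomucin gene Podxl at 0.46. Sele, the E-selectin gene, was at 0.06 FPKM in fl/fl and 0.02 FPKM in AD1KO and was not tested. Sele was named after its value had been seen. The enzymes that build selectin ligands were lower in 4 and higher in 1 of 11, with a median of -0.44. Among them the fucosyltransferase gene Fut4 was the lowest at -1.35, from 56 and 21 reads, and the sulfotransferase gene Chst4 the highest at 0.73, from 29 and 47 reads. The most abundant enzyme gene was Tpst2, a tyrosine sulfotransferase, at 36.5 FPKM in fl/fl and 42.81 FPKM in AD1KO.

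The immunoglobulin family receptors to which Icam1 and Vcam1 belong were lower in 7 and higher in 1 of 14, with a median of -0.55. Without these 2 members, 5 of 12 were lower and 1 was higher, with a median of 0.00, so that the list is divided and Icam1 and Vcam1 are on its lower side. With a minimum of 1 FPKM in 1 library, which leaves fewer of these genes, the median came to 0.00. Mcam, a vascular and pericyte adhesion molecule, was both the most abundant and the highest, at 90.2 FPKM in fl/fl and 147.92 FPKM in AD1KO with a log2 ratio of 0.71. At the lower end stood Icam4, listed at 0 in AD1KO and with 8 reads in fl/fl, and Cd226, a receptor of NK and T cells, at -2.65 from 36 and 5 reads, which was named after its value had been seen. The reads of Icam4 do not fix its place, as its counting interval reaches up to -0.75. Genes of endothelial junctions and transmigration were lower in 3 and higher in 1 of 14, against 19.1% and 14.3% of all tested genes, with a median of 0.27. They ran from Ocln, from 6 and 1 reads, to Tjp1 at 0.52, and Cd99 was the most abundant at 423 FPKM in fl/fl and 364 FPKM in AD1KO.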

How the data were processed

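RNA of gWAT was pooled over 4 animals per genotype and sequenced as 1 library each. Per the study's methods, clean reads were aligned to mouse mm9. The aligner and the quantifying program are not given in the sources used here, and the submitters' processing notes list mm9 and mm10 with no role. The authors deposited 1 table of both libraries with FPKM per gene, in which 0 is written as 0.01, and a transcript length. It also holds their log2 fold change, P-value and FDR, which were not used. The low FPKM values step in whole reads, which gave the depth and a length correction of 113 bases from 258 and 278 low values, of which 74.4% and 69.8% lay within 0.1 of a whole number of reads. Recovered reads summed over genes to 17652213 in fl/fl and 17418615 in AD1KO. Depth was read from low values only, and the reads of all genes were then computed from it. These recovered reads served for the counting intervals, and no other count test was run on them. Values of 0.01 were set back to 0, genes were kept if 1 library reached 0.1 FPKM, and log2 ratios were taken after adding 0.01 FPKM. This scale shrinks differences between low values above 0. For a gene at 0 in 1 library the ratio is set largely by the added 0.01 FPKM, as for Icam4 at -5.86 from 8 and 0 reads. For a single ratio the counting interval is an exact Clopper-Pearson interval (95%), and for a difference of ratios a normal approximation. Reads carry no molecular identifiers, and intervals and floors cover counting error only.

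The 9 genes and all lists were chosen with earlier results of these data known. Genes named are the 9, Dnmt1, Ptprc, the lowest, highest and most abundant gene of the lists, and the integrin partners, apart from those said to be named after their values. The list of selectins and selectin ligand proteins was reduced by 1 gene that is not reported here, after its value had been seen. Genes were matched by exact symbol, and positions are those of the GENCODE annotation of mm9. Shared 50-base stretches were sought among annotated protein-coding transcripts. Alternatives were 3 scalings, other pseudocounts, filters and thresholds, and, chosen after seeing the data, the pan-leukocyte median in place of Ptprc, the alpha sum without Itgad and the neutrophil sum without S100a8. Simulated data were made with known depths and folds. The depth fit, the calling of lower and higher genes and the counting interval of a single ratio were tested on them. The intervals for differences of ratios and the other steps were not tested in this way. Tools were pandas 2.3.3, NumPy 2.4.6, Matplotlib 3.10.9 and SciPy 1.17.1, run in Python 3.11.15.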

Additional observations from a re-analysis of the deposited data

How the results depend on the processing

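The count of lower genes among the 9 was 8 under scaling by trimmed mean of M-values, upper quartile or median of ratios, under pseudocounts of 0.1 and 1 FPKM, without a filter, with a minimum of 1 FPKM, and by the whole counting interval. It was 7 at a log2 ratio threshold of 1, and the count of higher genes was 0 in each of these 9 alternatives. The median log2 ratio of the 9 ranged from -1.11 to -0.996 and that of Selp from 0.26 to 0.44. A pseudocount of 1 FPKM moved Itgal to -1.35 and Itga4 to -0.94, and upper quartile scaling moved Itgb2 to -1.22, in each case beyond the counting interval. With at least 1 FPKM in 1 library, fewer genes of the immunoglobulin adhesion receptor list were tested, and its median went from -0.55 to 0.00 (0.000834). A pseudocount of 1 FPKM moved the list medians of B, T, NK and dendritic cell markers to -0.53, -1.26, -0.98 and -0.55 and that of platelet markers to -0.24. The median of lymphatic endothelial markers, 0.63, moved in 4 of 7 alternatives and was lowest, at 0.14, with 1 FPKM added. Without the filter the median of selectins and selectin ligand proteins, 0.18, came to 0.04, and that of neutrophil markers, -0.10, to 0.35. With the pan-leukocyte median in place of Ptprc no member moved beyond its interval, but the difference of Icam1 came to 0.13. Without Itgad, Itgb2 over the sum of its alpha partners went from 1.30 to 1.54 in fl/fl and from 0.894 to 1.39 in AD1KO, and without S100a8 the neutrophil sum went from 44.5 to 11.8 FPKM in fl/fl and from 64.7 to 7.38 FPKM in AD1KO. No paired analysis was possible because each genotype has 1 library of pooled RNA. For the same reason no library could be left out. Depth limits the values of genes with few reads, among them Ngp, Gp9, Gp5, Ocln, Icam4 and Itgae.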
